A study of Mus musculus with 4 samples.

Results

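The olfactory receptor genes of mouse chromosome 7 were followed in CD8+ T cells for H3K9me3, the trimethylation of histone H3 at lysine 9 that marks heterochromatin. Members were the protein-coding genes of chromosome 7 in RefSeq (GRCm38.p6, the assembly that mm10 names) whose symbol follows the olfactory receptor pattern. The rule found 237 genes, of 1106 protein-coding olfactory receptor genes and 21900 protein-coding genes in all. The rule uses no measured value, though the family was picked with earlier results of these data known. The cells came from wild-type C57BL/6 mice and were either naive (day 0) or on day 3 of in vitro culture with antibodies to CD3 and CD28 together with interleukin-2. Chromatin of 4000000 cells per immunoprecipitation was cut with micrococcal nuclease without cross-linking (native ChIP), and the labels give about 100000000 paired-end reads of 150 bases per library. Each day had 1 ChIP library, so every difference between days is a difference between 2 libraries, no test was possible and no value has a replicate check. The 2 input libraries were not analysed here. The labels do not say how many animals gave the cells.

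Olfactory receptors are G protein-coupled receptors of the sensory neurons of the nose, where each neuron expresses a single receptor gene and keeps the rest silent. In those neurons silent receptor genes are packed in heterochromatin that carries H3K9me3. The genes are short, the coding sequence usually lies in 1 exon, and they sit in long tandem clusters that grew by duplication. Class I receptors, first known from fish, are nearly all gathered in a single region of mouse chromosome 7 that also holds the beta-globin genes, while class II receptors form the larger part of the family and lie in clusters over most chromosomes. Class was read here from the MOR family name among the gene synonyms, with families numbered below 100 taken as class I. By this reading 123 members were class I, 109 were class II and 5 were not assigned.

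The unit of measurement was the island, a run of enriched windows that the authors' caller merged and kept as significant. For day 0 the authors listed 19989 islands, in which 3402787 reads fell, and for day 3 they listed 47553 with 10423178 reads, so the lists differ in length and depth. Islands on day 3 were also denser (median 52.9 reads per kb against 34.1 on day 0, with no correction for depth). Where no island is listed, no region passed the authors' threshold, and the mark may still be there at a lower level. Of 10 CD8 T cell marker genes, Cd8a, Cd8b1, Cd3d, Cd3e, Cd3g, Cd2, Lck, Zap70 and Thy1 had no island on either day, and Cd5 had 4.40 kb in an island on day 0 and none on day 3. These genes show where the mark lay and do not measure which cells were present.

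The sequence before the annotated start is shown for the members in which it lay wholly inside islands on both days. The choice does not rank islands by strength. The day 0 island at Olfr629, with 89 reads, had the fewest reads of those in the receptor gene clusters. RefSeq promoter entries (GRCm38.p6) matched 207 members, and the 250 bases before the start were used. In 159 of the 207 windows (76.8%) the annotated start was the ATG of the coding sequence, against 5.83% of all 32851 windows, so for these members the table gives the start of the coding sequence and not of transcription. The window was wholly in islands for 14 members on day 0 and 28 on day 3, beside 2.02% and 2.52% of all windows, and for 6 members on both days. They are written from the far end to the base before the start, and capitals mark TATAAA or its reverse complement (the TATA box core) and TAATTA (a homeodomain core):
Olfr556: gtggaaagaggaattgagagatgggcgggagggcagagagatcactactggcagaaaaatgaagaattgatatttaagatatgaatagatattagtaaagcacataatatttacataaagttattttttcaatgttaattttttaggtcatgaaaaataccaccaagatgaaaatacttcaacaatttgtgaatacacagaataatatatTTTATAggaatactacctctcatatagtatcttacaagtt
Olfr607: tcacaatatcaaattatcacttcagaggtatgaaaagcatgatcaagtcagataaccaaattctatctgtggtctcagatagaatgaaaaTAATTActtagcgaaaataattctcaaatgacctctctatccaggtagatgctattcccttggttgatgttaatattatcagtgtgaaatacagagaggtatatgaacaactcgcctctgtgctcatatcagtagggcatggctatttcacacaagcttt
Olfr629: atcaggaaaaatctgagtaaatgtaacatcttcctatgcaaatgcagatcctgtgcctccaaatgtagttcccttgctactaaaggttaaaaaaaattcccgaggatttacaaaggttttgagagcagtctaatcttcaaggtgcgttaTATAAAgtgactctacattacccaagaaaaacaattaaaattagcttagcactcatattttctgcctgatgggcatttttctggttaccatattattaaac
Olfr69: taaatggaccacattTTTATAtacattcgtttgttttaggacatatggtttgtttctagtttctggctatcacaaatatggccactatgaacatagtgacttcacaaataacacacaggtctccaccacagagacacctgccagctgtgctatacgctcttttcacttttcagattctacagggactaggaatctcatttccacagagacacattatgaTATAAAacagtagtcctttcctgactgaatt
Olfr67: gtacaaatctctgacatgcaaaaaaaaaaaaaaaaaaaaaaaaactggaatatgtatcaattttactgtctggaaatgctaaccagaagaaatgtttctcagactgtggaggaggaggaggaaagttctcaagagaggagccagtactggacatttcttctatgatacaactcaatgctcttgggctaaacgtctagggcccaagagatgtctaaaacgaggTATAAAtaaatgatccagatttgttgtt
Olfr695: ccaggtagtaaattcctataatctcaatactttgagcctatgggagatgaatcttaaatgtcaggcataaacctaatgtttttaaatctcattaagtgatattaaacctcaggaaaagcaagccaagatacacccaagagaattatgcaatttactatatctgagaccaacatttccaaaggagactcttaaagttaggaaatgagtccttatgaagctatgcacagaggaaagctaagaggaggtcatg

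These windows lie at chr7:102669651-102669900 for Olfr556 on the plus strand, and on the minus strand at chr7:103464127-103464376 for Olfr607, chr7:103741323-103741572 for Olfr629, chr7:103771595-103771844 for Olfr69, chr7:103791831-103792080 for Olfr67 and chr7:106716346-106716595 for Olfr695. Olfr695 is a class II receptor gene and the others are class I. TATAAA, searched on both strands, lay from 31 to 26 bases before the start of Olfr69 and from 28 to 23 before that of Olfr67. As its reverse complement it was found from 40 to 35 before the start of Olfr556 and from 235 to 230 before that of Olfr69. In Olfr629 TATAAA lay from 101 to 96 bases before the start. It occurred in 85 of the 207 member windows (41.1%) and in 12.4% of all windows of the same length. TAATTA, a palindrome, occurred in 28 member windows (13.5%) and in 4.84% of all windows. Another motif searched in the same windows, a palindrome with free bases in its middle, was not more frequent in members. It occurred in 1 of the 207 member windows (0.483%) and in 0.779% of all windows, and the member share rests on that 1 window. Member windows were poor in CG dinucleotides, with a median of 1 against 6 in all windows, and in GC content (median 35.6% against 52.4%). A match to these letters is a description of the sequence and shows no binding.

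An island lay over the body of 19 of the 237 genes on day 0, or 8.02% (95% Wilson interval 5.19 to 12.2), and of 46 on day 3, or 19.4% (14.9 to 24.9). Among all protein-coding genes the shares were 22.6% on day 0 and 27.1% on day 3, but the median body was 954 bp in the members and 17146 bp over all genes, and a longer gene meets an island more often. Among the 361 protein-coding genes of 915 to 1100 bp outside the family the shares were 1.66% and 1.94%. The members of up to 1100 bp, 196 in number, had an island in 10 cases on day 0 and 27 on day 3 (5.10% and 13.8%). In short bodies, then, the member shares stood above those of other short genes in both libraries. At least 50% of the body was covered in 11 members on day 0 and 23 on day 3, beside 0.813% and 2.24% of all genes. This measure favours short bodies. Among the 196 members of up to 1100 bp it was met by 8 on day 0 and 16 on day 3. Among the 361 short genes outside the family it was met by 6 on each day. Intervals cover counting error only, and members are neighbours that are not independent of one another.

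An island was present on both days in 9 members, only on day 0 in 10 members and only on day 3 in 37, beside 15.9%, 6.74% and 11.2% of all genes. In all 9 the covered bases of the 2 days overlapped. The remaining 181 members had no island on either day. The 9 make up 47.4% of the day 0 genes and 19.6% of the day 3 genes, where over all genes the corresponding shares were 70.2% and 58.7%. In the 361 short genes outside the family they were 16.7% and 14.3%, but these rest on 1 gene, of 6 on day 0 and 7 on day 3. In olfactory receptor genes on other chromosomes they were 31.7% and 10.1%, from 13 genes with an island on both days. The size of the day 3 list bears on these counts. When only the 19989 day 3 islands with the most reads were kept (called the reduced list here), 26 members had one on day 3 (11%), and over all genes the share was 17.9%, below that of day 0. When only islands at or above the median read density of their own list were kept (the density limit), 13 members had one on day 0 and 27 on day 3, and the shares of all genes were 14.5% and 19.1%.

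Chained at gaps of up to 100 kb, the members formed 11 clusters, numbered here from the centromeric end, that spanned 4984 kb. Over all clusters, 5.17% of bases lay in islands on day 0 and 12.1% on day 3. In the 500 kb flanks on each side, with cluster bases left out, the shares were 4.00% and 5.83%, so that the clusters exceeded their flanks by 1.17 percentage points on day 0 and by 6.30 on day 3. Chromosome 7 outside the clusters had 3.16% and 4.98%, and the autosomes together 4.08% and 8.07%. Covered length in the clusters was 257.5 kb on day 0 and 604.2 kb on day 3, a ratio of 2.35, beside 1.46 in the flanks and 1.98 over the autosomes. Cluster 5 holds much of this pattern. Without it the difference was -0.909 points on day 0 and 3.27 on day 3. On day 3 the difference was 3.38 points with the reduced list and 3.17 with the density limit.

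**Figure D1:**
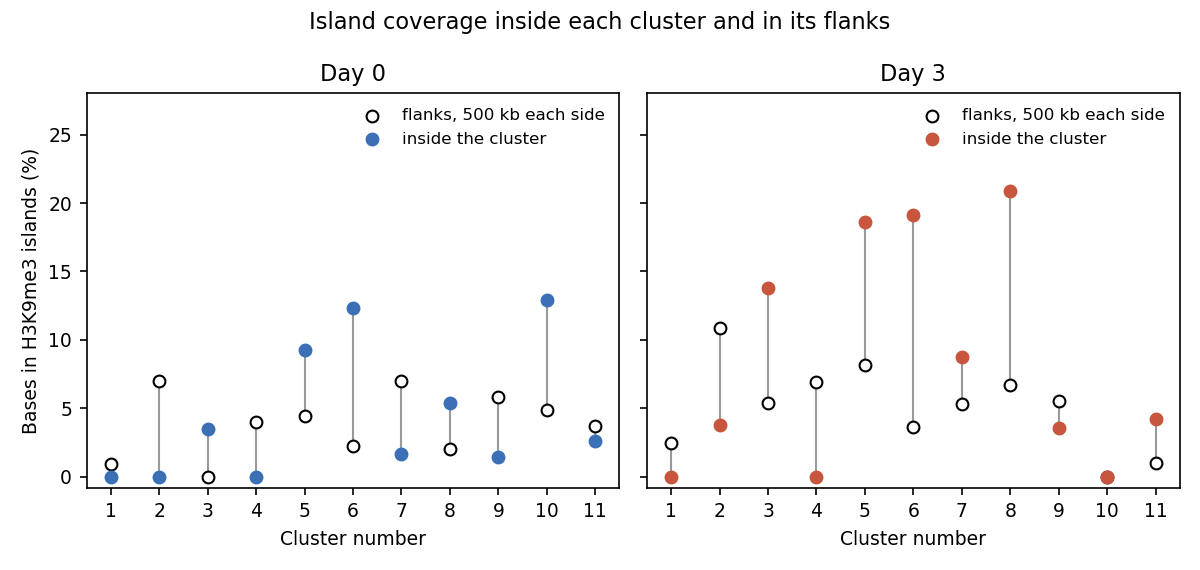
Percentage of bases in H3K9me3 islands inside each of the 11 olfactory receptor clusters (filled points) and in the 500 kb flanks on each side (open points), for the day 0 and the day 3 library, joined by a line for each cluster. On day 3 clusters 3, 5, 6, 7, 8 and 11 lie above their flanks, by up to 15.5 percentage points in cluster 6, and clusters 1, 2, 4 and 9 lie below them.

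The clusters differed widely. Cluster 5 (chr7:102476773-104190205), with 91 genes the largest, runs from Olfr543 to Olfr649, holds 89 class I genes and 2 not assigned, and contains the beta-globin genes. It was covered over 9.29% on day 0 by 36 islands and over 18.6% on day 3 by 87 islands, against 4.46% and 8.14% of its flanks. Cluster 6 (chr7:104552884-104704603), with 11 genes, was covered over 12.3% and 19.1%, against 2.28% and 3.62% outside, but with the reduced list its day 3 minus day 0 difference turned to -3.11 points. Cluster 7 (chr7:104880709-105369317), the last of the class I region with 24 genes, stood lower, at 1.68% in 1 island on day 0 and 8.74% in 13 islands on day 3, with flanks at 7.04% and 5.34%. On day 0 the flank on its centromeric side had 0.598% and the other 11.5%. Of the 3 clusters of class I genes, cluster 7 was thus the least covered in both libraries.

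Class II clusters ranged from uncovered to the most covered of all. Cluster 8 (chr7:106677534-107148329), with 23 genes from Olfr693 to Olfr716, had 5.40% of its bases in 6 islands on day 0 and 20.9% in 22 islands on day 3, where the flanks had 2.0% and 6.71%. Cluster 3 (chr7:86268730-86695384), with 15 genes, had 3.47% and 13.8%, and its flanks held no island on day 0 and 5.42% on day 3. Cluster 9 (chr7:107814586-108894405) is the second largest with 42 genes, and it had 1.44% and 3.56%, below its flanks on both days (5.86% and 5.56%). With the reduced list its day 3 minus day 0 difference turned to -0.463 points. A stretch of 511.8 kb with 19 receptor genes in cluster 9 held no island on day 0. Cluster 11 (chr7:140322701-140705191), with 16 genes, had 2.61% and 4.24%, and none of its receptor genes was touched on either day. Its day 3 minus day 0 difference turned to -1.10 points with the reduced list and to -0.209 with the density limit. Cluster 1 (chr7:6439902-6570919), with 8 genes, had no island on either day. The 3 clusters of 2 or 3 genes held 1 island on day 0 and 1 on day 3 among them.

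**Figure D2:**
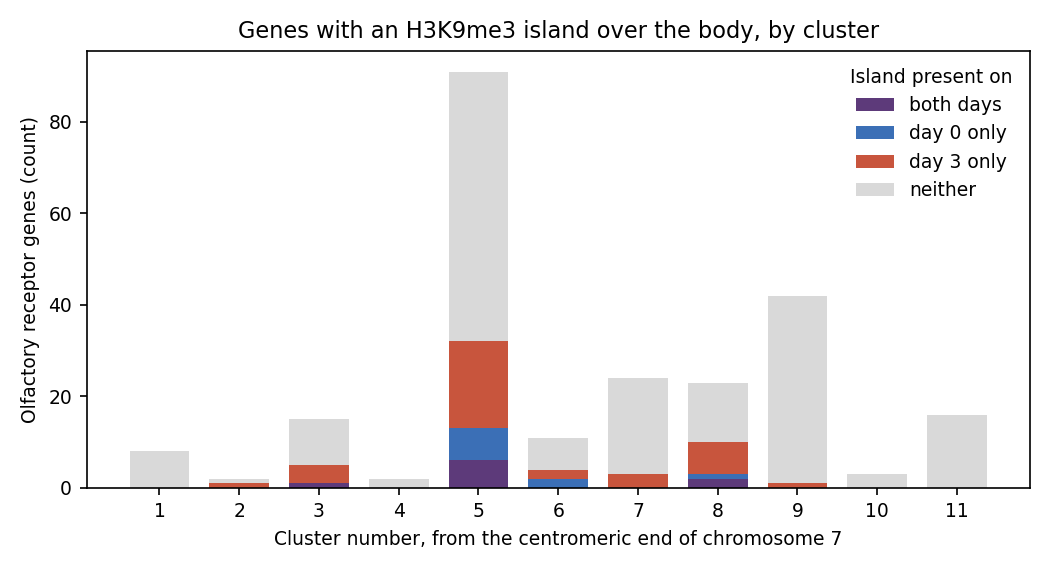
Number of olfactory receptor genes in each of the 11 clusters of chromosome 7, split by whether an island lay over the body on both days, on day 0 only, on day 3 only or on neither day. Cluster 5 holds 6 of the 9 genes with an island on both days and 19 of the 37 with one on day 3 only, and in cluster 9 a single gene of 42 has an island.

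Of the 123 class I genes, 15 (12.2%) carried an island in the naive library and 29 (23.6%) in the cultured one, and of the 109 class II genes these were 4 (3.67%) and 16 (14.7%). The class II share was lower by 8.53 percentage points on day 0 and by 8.90 points on day 3. The 95% intervals of these differences, built from the Wilson intervals of both shares, were -15.8 to -1.40 and -18.8 to 1.37. They cover counting error only and treat neighbouring genes of 1 library as independent, which they are not. Class and position cannot be told apart, since the class I genes all lie in clusters 5, 6 and 7 apart from Olfr503 and Olfr504 in cluster 9. Without cluster 5 the class II share was 2.21 points lower on day 0 and 2.91 points higher on day 3. Among class II families the counts were uneven. In MOR283, a family of 12 genes in cluster 8, islands lay over 1 gene on day 0 and 5 on day 3, while MOR204, with 31 genes in cluster 9, had none on day 0 and 1 on day 3. Families MOR253 (9 genes, cluster 11) and MOR268 (6 genes, cluster 9) had none on either day. In class I, MOR31 had 2 and 3 of 11 genes, MOR14 had 1 and 3 of 8, MOR32 had 0 and 2 of 10, and MOR40 had none of 9 on either day.

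Most islands in the clusters lay between receptor genes. On day 0, 39 of 58 islands touched no member body, and on day 3 it was 114 of 160 (67.2% and 71.2%). A single island touched 2 members on each day, Olfr557 with Olfr558 on day 0 and Olfr618 with Olfr619 on day 3, and none touched more. Member bodies make up 8.73% of cluster length and held 9.11% of the covered bases on day 0 and 10.4% on day 3. Sequence within 5 kb of a body makes up 41.5% of the length and held 53.1% and 57.6%. Sequence further away makes up 49.8% and held 37.8% and 32%. Relative to its length, the sequence within 5 kb of a body held the most.

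Around the 171 members with a body of up to 1100 bp and a known strand, coverage on day 3 was lower over the body than in each of the 1 kb bins up to 10 kb on either side. On day 3, 8.29% of body bases lay in islands, against 16.8% in the first kb upstream, 20.1% from 2 to 3 kb upstream and 16.9% in the first kb downstream. From 9 to 10 kb upstream it was 10.7%. On day 0 the values were 3.96% over the body, 5.12% in the first kb upstream, 8.54% from 2 to 3 kb upstream and 4.39% in the first kb downstream, the last being close to the value over the body. In class II genes on day 0 the body had 0.280% and the first kb upstream none. On day 3 the class II body (8.01%) was above the bins ending 6, 7 and 8 kb downstream (7.97%, 6.99% and 7.44%). In class I genes the day 3 body was below every bin. The distances were chosen after their values were seen. Olfactory receptor genes of the same size on other chromosomes, 587 in number, had 6.49% over the body and 22.1% from 2 to 3 kb upstream on day 3 (3.40% and 4.91% on day 0). The 306 other short protein-coding genes had 1.88% and 6.09% on day 3 (1.86% and 2.57% on day 0). The sources used here do not say how reads that map to more than 1 place were treated, and the part that near-identical coding sequences have in the lower value over bodies was not tested.

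**Figure D3:**
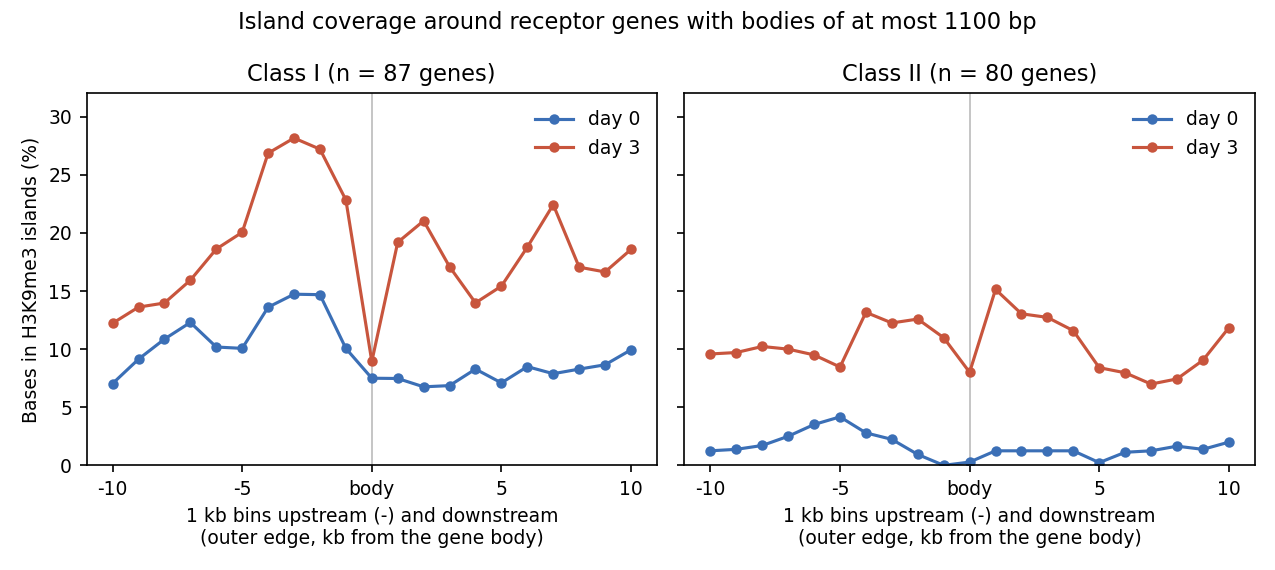
Percentage of bases in H3K9me3 islands over the body and in 1 kb bins up to 10 kb upstream (negative) and downstream of receptor genes of chromosome 7 with bodies of at most 1100 bp, for 87 class I and 80 class II genes on day 0 and day 3. On day 3 class I genes have 8.94% over the body and 28.2% from 2 to 3 kb upstream, and class II genes have 8.01% and 12.3%.

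Counting islands within 5 kb of the body as well, 51 members had one on day 0 and 112 on day 3, beside 27.3% and 33.2% of all genes. Among the 171 short members these were 32 and 73 (18.7% and 42.7%), among the 587 receptor genes of that size on other chromosomes 71 and 244 (12.1% and 41.6%), and among the 306 other short genes 19 and 41 (6.21% and 13.4%). In the class I genes of this size the 2 to 3 kb upstream bin held 14.7% on day 0 and 28.2% on day 3, and in the class II genes 2.23% and 12.3%. The class II genes thus had little coverage near them on day 0. The median distance from a member to the nearest island was 25.8 kb on day 0 and 5.77 kb on day 3. For the other protein-coding genes of chromosome 7 it was 78.4 and 81.3 kb. More than 20 kb from any island lay 134 members on day 0 and 63 on day 3.

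In length and read density the islands were close to those of the rest of the chromosome. In the clusters the median length was 4.20 kb on day 0 and 3.40 on day 3, against 4.6 and 3.60 kb on chromosome 7 outside them. Median read density was 35.6 and 54.7 reads per kb, against 34.4 and 52.8. Of the 58 day 0 islands in the clusters, 30 overlapped a day 3 island (51.7%, Wilson interval 39.2 to 64.1), and outside the clusters 252 of 874 did (28.8%, 25.9 to 31.9). Of the 160 day 3 islands, 31 overlapped a day 0 island (19.4%, 14.0 to 26.2), and outside 260 of 1682 did (15.5%, 13.8 to 17.3). The other day's islands also covered more of the clusters than of the rest of the chromosome (12.1% against 4.98% on day 3, and 5.17% against 3.16% on day 0), and their part in these overlaps was not tested. Of the 58 day 0 islands, 19 had fewer reads per kb than the least dense island of the day 3 list (34.11). Over all chromosomes the median day 0 island had 34.06, so most day 0 islands of the genome were below it too. These densities are not corrected for depth. A gene with an island on day 0 alone may still carry the mark on day 3, below the threshold of the day 3 list.

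The map of clusters 5 and 8 shows how islands spread through them. In cluster 5 the 100 kb bins with the highest day 3 coverage were those from 1200 to 1300 kb (35.6%, and 19% on day 0) and from 400 to 500 kb (35%, and 10.4% on day 0) after the first gene. The first bin went the other way, with 16.6% on day 0 and 8.60% on day 3. The longest stretch of cluster 5 with no island was 188.0 kb with 7 receptor genes on day 0 and 90.6 kb with 2 on day 3.

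**Figure D4:**
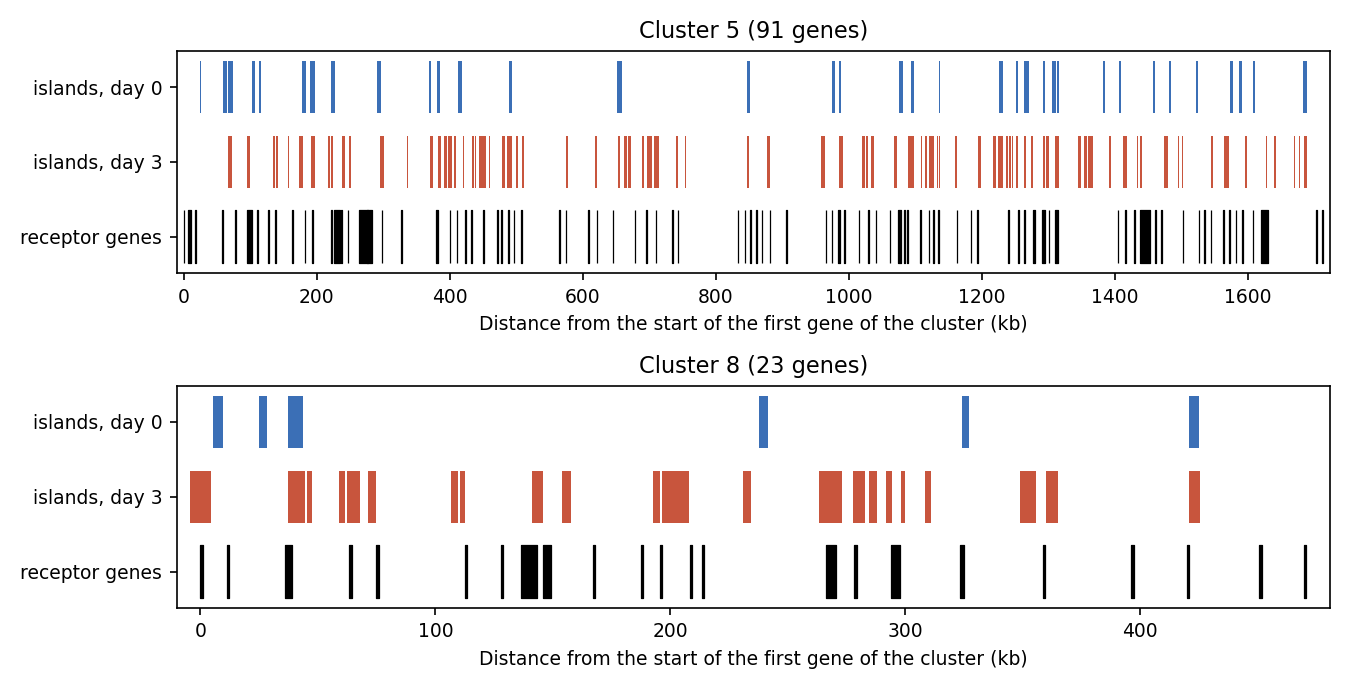
Islands of day 0 and day 3 and receptor gene bodies in cluster 5 (91 genes) and cluster 8 (23 genes), drawn to scale against the distance in kb from the start of the first gene, with a thin outline added to the genes so that short ones can be seen. Day 3 islands are more numerous in both clusters (87 against 36 in cluster 5, and 22 against 6 in cluster 8) and lie mostly between genes.

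Of the 5 islands with the most reads on day 0, 2 lay in cluster 5. The first held 292 reads (exact 95% Poisson interval 259 to 327) over 8.20 kb (chr7:102542801-102551000) and ended 3.29 kb from Olfr549. The second, with 252 reads (222 to 285), covered Olfr556. The others in the first 5 lay near Olfr685 in cluster 7 (236 reads), near Olfr655 in cluster 6 (235 reads) and over Olfr695 in cluster 8 (233 reads). On day 3 the first 3 lay in cluster 8. They touched Olfr705 (576 reads, interval 530 to 625, chr7:106874201-106885600), Olfr693 (489 reads) and Olfr710 (488 reads). The fourth touched Olfr618 and Olfr619 in cluster 5 (479 reads) and the fifth Olfr655 in cluster 6 (414 reads). All 5 of these day 0 islands overlapped a day 3 island, and none of the 5 day 3 islands overlapped a day 0 island. Of all islands in the clusters, 51.7% on day 0 and 19.4% on day 3 overlapped one of the other day. Over all chromosomes the shares were 33.6% and 14.9%.

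Among genes with an island on both days, Olfr69 and Olfr67, also known as 3'beta3 and 3'beta1, are class I receptor genes that neighbour the beta-globin genes. Olfr69 (chr7:103767277-103771594) had 3.19 kb, or 74.0% of its body, inside islands on each day, by an island of 158 reads on day 0 and of 203 reads on day 3. In Olfr67 (chr7:103787212-103791830) it was 3.22 kb (69.7%) on day 0 and 4.03 kb (87.2%) on day 3, of which 2.63 kb were the same bases. These 2 genes had the most covered bases of all members on day 0. Olfr556 (chr7:102669901-102670923) and Olfr557 (chr7:102698216-102699272) were covered over their whole bodies on both days, by islands of 252 and 194 reads on day 0 and of 298 and 162 reads on day 3. Olfr695 (chr7:106713732-106716345) was covered over 1.54 kb on each day. Olfr607 had 1.93 kb on day 0 and 1.13 kb on day 3. Olfr305 had 0.960 and 0.535 kb. Olfr629 was touched over 0.122 kb on both days. With the reduced day 3 list, Olfr69, Olfr607, Olfr557, Olfr305 and Olfr629 had no day 3 coverage.

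Genes with the most covered bases on day 3 had mostly no island on day 0. Olfr687 (chr7:105227717-105276461), whose annotated body is the longest of the members at 48.7 kb, had 7.20 kb in islands on day 3, or 14.8%. Olfr710 (chr7:106944067-106948312) lay wholly in an island, over 4.25 kb. Olfr550 was covered over 4.00 kb (48.6%), Olfr301 over 3.75 kb (39.7%), Olfr292 over 3.00 kb (42.6%), Olfr646 over 2.60 kb (26.3%), Olfr291 over 2.40 kb (64.0%) and Olfr676 over 2.03 kb (44.3%). All 8 had no island on day 0, as did 37 of all 46 members with an island on day 3. Over all protein-coding genes it was 2450 of 5931. The nearest day 0 island was 0.339 kb from Olfr550, 24.9 kb from Olfr710 and 225.1 kb from Olfr292. The difference vanished for Olfr687, Olfr292 and Olfr646 with the reduced list and with the density limit, for Olfr710 and Olfr301 with the density limit, and for Olfr291 and Olfr676 with the reduced list. With islands of at least 3000 bp it vanished for Olfr646, Olfr291 and Olfr676. Olfr550 was covered over the same length under the 3 selections of islands tried.

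Genes with an island on day 0 alone were led by Olfr613 (chr7:103550368-103555504), with 2.50 kb or 48.7% of its body in an island of 205 reads. Olfr566 had 1.17 kb (47.6%) and Olfr651 lay wholly in an island over 1.07 kb. On day 3 the nearest islands were 0.368 kb from Olfr613, 0.036 kb from Olfr566 and 2.88 kb from Olfr651. For Olfr613 and Olfr566 a day 3 island thus lay within 1 kb of the body. With the density limit Olfr651 and Olfr558 had no coverage on either day.

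Some members have a known place in the study of the family. Olfr2 (I7, chr7:107000875-107002605), the receptor long used to study odorant binding and known for its response to octanal, had 0.805 kb or 46.5% of its body in an island of 113 reads on day 0, and its nearest day 3 island was 12.3 kb away. With islands of at least 3000 bp it had none on either day. Olfr17 (P2, chr7:107097467-107098414), used in classic work on axon targeting, was touched over 0.214 kb on both days. Olfr78 (chr7:102740721-102759471), a class I receptor also expressed outside the nose, for instance in the carotid body, had no island on either day, and the nearest lay 8.33 kb away on day 0 and 12.1 kb away on day 3. Olfr558, its neighbour of the same family, had 1.48 kb (15.2%) on day 0 and none on day 3, with an island 1.12 kb away. The class I receptor genes Olfr544 and Olfr545, at the proximal end of cluster 5, had no island on either day.

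**Figure D5:**
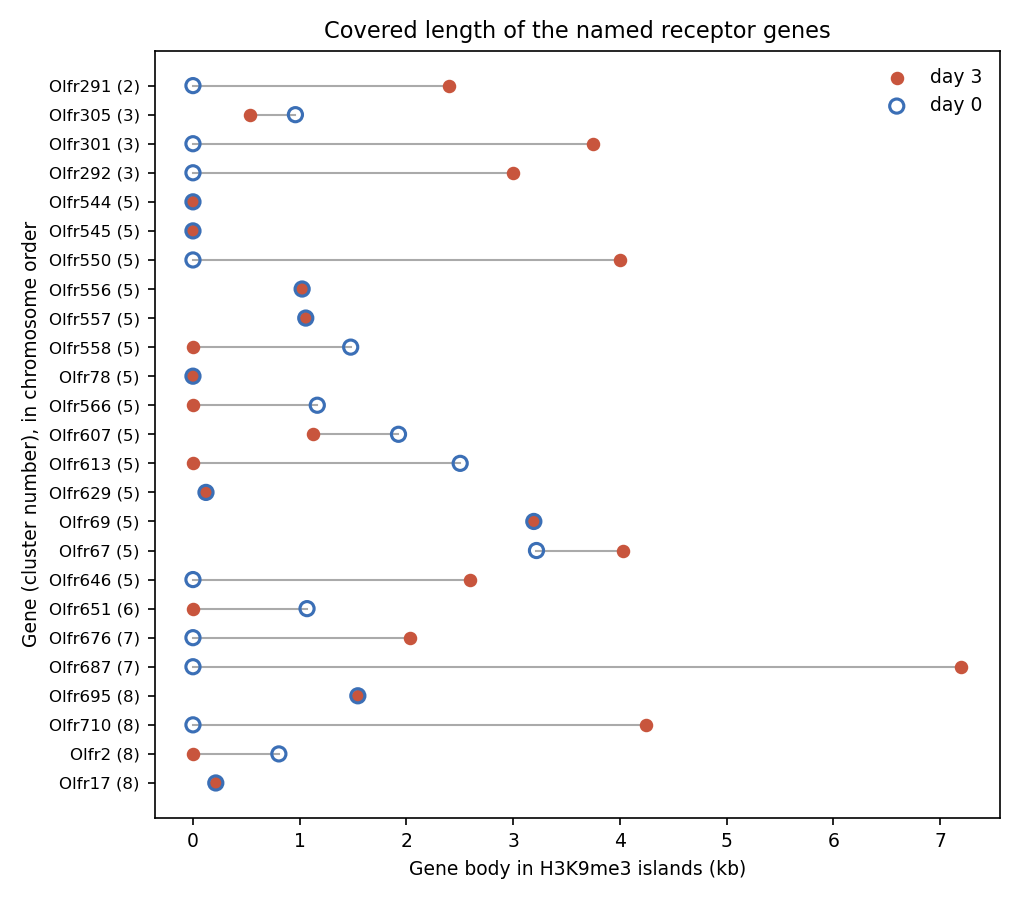
Length of the gene body in H3K9me3 islands (kb) on day 0 (open circles) and day 3 (filled circles) for 25 named receptor genes in chromosome order, with the cluster number in brackets and a line that joins the days. Olfr69, Olfr556, Olfr557, Olfr629, Olfr695 and Olfr17 have the same length on both days, and Olfr687 has the longest on day 3.

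The beta-globin genes stand inside cluster 5 and encode subunits of haemoglobin. Hbb-bh1 and Hbb-bh2 lay wholly in an island on day 3 (chr7:103836401-103843800, 381 reads), and had none on day 0. Hbb-bs was touched over 0.078 kb on day 3, and Hbb-bt and Hbb-y had no island on either day. Trim genes, which encode antiviral and other ubiquitin ligases, lie inside cluster 5 (Trim21 and Trim68), between clusters 5 and 6, and beyond cluster 9 (Trim66). Trim5, Trim12a, Trim12c, Trim21, Trim30a, Trim30b, Trim34a, Trim34b and Trim68 had no island on either day, Trim6 had 2.75 kb on day 0 only, and Trim30c, Trim30d and Trim66 had 4.80, 2.20 and 5.40 kb on day 3 only. Of 25 other genes of chromosome 7 followed, most of them in or near the clusters, an island lay over 2 on day 0 and over 8 on day 3, beside 22.6% and 27.1% of all genes.

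Of 28 genes that serve receptor signalling and receptor choice in olfactory neurons, islands lay over 13 on day 0, over 13 on day 3 and over 11 on both, beside 22.6%, 27.1% and 15.9% of all genes. Those with an island on either day were longer (median 103.3 kb) than those without (8.75 kb). The marker gene Omp, the channel gene Cnga4, the receptor transporter genes Rtp1 and Rtp2 and the transcription factor genes Lhx2 and Emx2 had none. Kdm1a, which encodes the demethylase needed to switch on a receptor gene, had 15.4 kb in islands on day 0 and 3.8 kb on day 3. Ebf1, which encodes a transcription factor of olfactory neurons and of B cells, had 29.0 and 41.8 kb.

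Olfactory receptor genes on other chromosomes carried an island in 41 of 869 cases on day 0 (4.72%, Wilson interval 3.50 to 6.34) and in 129 on day 3 (14.8%, 12.6 to 17.4), beside 8.02% and 19.4% on chromosome 7. The difference was not tested, since each day has 1 library. It was smaller among genes with a body of up to 1100 bp and a known strand. There the shares were 4.68% of 171 genes on chromosome 7 and 3.92% of 587 on other chromosomes on day 0. On day 3 they were 14.0% and 11.9%. On chromosome 2 the counts were 9 and 45 of 286 (3.15% and 15.7%), and on chromosome 9 they were 4 and 29 of 129 (3.10% and 22.5%). On chromosome 16 they were 3 and 13 of 36 (8.33% and 36.1%). The day 3 shares of chromosomes 9 and 16 were thus above that of chromosome 7. Class II genes of chromosome 7 (3.67% and 14.7%) stood near those of the other chromosomes (4.84% and 14.9%).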

How the data were processed

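H3K9me3 ChIP islands of 2 libraries, 1 per day, were used. Each deposited list gives island positions and 1 whole number per island without a column name, taken as the authors' raw read count, not scaled for depth, length or input. Per the submitters' processing notes, Bowtie2, SICER 1.1 and the build mm10 were used. The caller's thresholds and the use of the input were not given in the sources used here. All borders fell on multiples of 200 bp, and positions were converted to 1-based.

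Covered bases were computed with Python 3.11.15, numpy 2.4.6 and pandas 2.3.3, and intervals with scipy 1.17.1. The coverage code was tested on simulated islands. An overlap of at least 1 bp counted as an island over a gene. Clusters were chained at gaps up to 100 kb and compared with flanks of 500 kb. No test was made, and the replicate error is unknown.

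The planned class rule used Or names. The gene table gives Olfr symbols, so MOR family names were used instead. The members and lists were chosen with earlier results of these data known. The named genes are the 10 with the most covered bases on day 3, on day 0 and on both days (9 exist), and 6 well-known receptor genes. Islands named are the 5 with the most reads on each day in the clusters. Alternatives changed the overlap, the body, the chaining gap, the flank length and the islands counted. The 300 bp promoter entries of RefSeq were shortened to the 250 bases before the start.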

Additional observations from a re-analysis of the deposited data

How the results depend on the processing

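No paired analysis was possible because each day has 1 ChIP library and no replicate numbers. With at least 50% of the body covered, the members counted were 11 for day 0 and 23 for day 3 (19 and 46 as reported). With 5 kb added on each side the counts were 51 and 112, and the class II minus class I difference was -22.4 points on day 0 and -26.3 on day 3. As reported, that class difference was -8.53 and -8.90. It was -5.48 and -1.39 with at least 50% of the body covered, and -8.63 and -5.15 with islands of at least 3000 bp. With the density limit it was -5.38 and -8.11, and with lists of equal length -8.53 and -3.83. On day 3 the members with an island were 27 with the density limit and 26 with lists of equal length, and with islands of at least 3000 bp both counts stayed within 1.5 times of those reported. Cluster coverage minus flank coverage on day 0 (1.17 points) was 1.87 with chaining at 50 kb and 1.87 with flanks of 200 kb. On day 3 (6.30 points) it was 6.98 and 5.61 with chaining at 50 and 200 kb, 5.45 and 6.83 with flanks of 200 kb and 1 Mb, 3.17 with the density limit, 3.38 with lists of equal length and 4.91 with islands of at least 3000 bp.

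3 alternatives were chosen after seeing the data: shorter bodies, leaving out cluster 5, and the body profile under the island selections. With bodies of at most 1100 bp the members counted were 10 and 27. Without cluster 5, 6 and 21 members had one, the class difference on day 3 turned to 2.91 points, and clusters minus flanks was -0.909 points on day 0 and 3.27 on day 3. Among the 75 alternatives of the 25 named genes, the difference between days became 0 in 16. For Olfr305 it turned from -0.425 to 0.535 kb with the density limit. The difference between days in percent covered turned with lists of equal length to -3.11 points in cluster 6, -0.463 in cluster 9 and -1.10 in cluster 11, and in cluster 11 also with the density limit (-0.209). Inside minus flanks turned to -0.128 in cluster 7 on day 3 with lists of equal length and to 0.357 in cluster 11 on day 0 with the density limit. The causes were not tested. Coverage over bodies minus that from 2 to 3 kb upstream, a bin chosen for its high value, was -11.8 points on day 3 and -8.91, -4.49 and -7.36 with the density limit, lists of equal length and islands of at least 3000 bp.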
